A study of Mus musculus with 1094 samples.

Results

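The 40 genes described here encode proteins that carry a cell through G2 and mitosis. They were listed by name for their role in the cell cycle and matched by symbol to the 23078 genes of the deposited expression tables of single cells from the developing mouse dorsal cortex. All 40 were found, and all 40 passed the filter on low values. The study sorted neural stem cells (NSC), basal progenitors (BP) and newborn neurons (NBN) at a series of stages and sequenced each captured cell. A library, in what follows, pools every cell sorted as 1 population on 1 day. NBN had 4 libraries (days E16.5 and E18.5 before birth, P1 and P3 after), BP had 5 (every second day E12.5 to E18.5, then P0) and NSC had 8 (E10.5, E11.5, every second day E13.5 to E17.5, E18.5, P0 and P1). All mice were C57Bl/6, labelled wild-type and female. NSC were sorted as green cells of the Hes5::GFP line, whose reporter follows a Notch target gene, and BP and NBN as green cells of the Tbr2::GFP line, whose reporter follows the gene Eomes. Green fluorescent protein can outlast the activity of its promoter, so a sorted cell need not still express the marker. The pups were labelled 1 (P0), 2 (P1) and 4 (P3) days old. How BP and NBN were told apart is not given in the sources used here. The labels name no animals, and the same ones may have given both BP and NBN on a given day.

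In G2 a cell with copied chromosomes builds up B-type cyclins, which switch on the kinase Cdk1 and drive entry into mitosis. Condensed chromosomes are then attached to the spindle through kinetochores, a checkpoint holds the cell until every kinetochore is attached, and the anaphase-promoting complex has securin and the cyclins destroyed so that the chromatids part and the cell divides. In the developing cortex, stem cells divide at the ventricle and basal progenitors divide away from it, while neurons do not divide.

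Many genes of this group are known to be held silent in resting cells and in G1 through short promoter elements, so the promoters of 5 members described below are shown. The CHR element (cell cycle genes homology region) has the letters TTTGAA or, in some genes, TTTAAA, and CCAAT is the core of the element bound by NF-Y. The sequences are the 110 bases before the start site, 5′ to 3′ on the gene's strand, from RefSeq on GRCm38.p6. Capitals mark matches to either form of the CHR and to CCAAT, read on both strands.
Ccnb1, minus strand, chr13:100786487-100786596: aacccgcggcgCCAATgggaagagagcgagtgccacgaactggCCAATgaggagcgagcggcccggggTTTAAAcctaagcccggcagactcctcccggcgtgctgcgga
Cdk1, minus strand, chr10:69352913-69353022: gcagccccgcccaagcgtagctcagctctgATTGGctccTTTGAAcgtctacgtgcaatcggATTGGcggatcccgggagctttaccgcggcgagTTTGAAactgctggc
Cdc20, minus strand, chr4:118437344-118437453: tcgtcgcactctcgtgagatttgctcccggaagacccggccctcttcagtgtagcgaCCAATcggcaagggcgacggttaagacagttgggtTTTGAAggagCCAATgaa
Ube2c, plus strand, chr2:164769819-164769928: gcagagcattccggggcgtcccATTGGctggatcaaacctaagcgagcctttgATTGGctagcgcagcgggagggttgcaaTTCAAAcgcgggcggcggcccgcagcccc
Top2a, minus strand, chr11:99024190-99024299: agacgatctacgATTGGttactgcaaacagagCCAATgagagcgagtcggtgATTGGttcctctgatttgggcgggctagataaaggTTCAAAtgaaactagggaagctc

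Of the 40 members, 33 had a promoter entry of 300 bases, 250 before and 50 after the start site, with 35 promoters in all. TTTGAA on either strand was found in 71.4% of these 35 promoters, against 17.9% of all 32851 promoters of the table and 10.3% of 29 promoters of G1/S genes. CCAAT on either strand was found in 80.0% of the member promoters, against 37.4% of all and 55.2% of the G1/S promoters. CCAAT together with TTTGAA or TTTAAA was present in 71.4% of member promoters and in 10.7% of all. In the printed sequences the marked letters do not overlap one another, but in the full windows of Cdca8 and Ube2c some matches share bases. Ccnb1 carries TTTAAA in place of TTTGAA, as the sequence above shows, and Nuf2, Nusap1, Mad2l1 and Pttg1 had none of these letters in the window. A match of letters is a description and not a shown binding site.

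The expression values are TPM (each cell's transcripts scaled to a fixed total), from which sequencing depth cannot be read, and depth is therefore unknown. Of 1094 deposited cells, 19 with fewer than 500 genes at 1 TPM or more were left out, which left 208 NBN, 335 BP and 532 NSC cells. Libraries held 39 to 88 of these cells, and their median number of genes per cell lay between 3189 in NBN P1 and 5764 in NBN E16.5. Markers went against the sort in several libraries. In NBN P3, the 14 newborn neuron markers summed to 1010 TPM, against 8552 to 11590 TPM in the other NBN libraries. In the same library the 7 microglial markers summed to 4771 TPM and the 5 meningeal markers to 1771 TPM, against at most 32.7 and 144.5 TPM in every other library, and 19 of its 40 cells had 2 or more microglial markers at 10 TPM or more. Neuronal markers outweighed radial glial ones in 78 of the 86 cells of NSC E15.5. Between 2 and 56 cells of the other NSC libraries had such a neuron profile (a higher mean log2 TPM of 14 newborn neuron than of 15 radial glial markers). So did 330 of the 335 BP cells, and the newborn neuron markers summed to 6544 to 10600 TPM in the BP libraries. The profile does not use basal progenitor markers, which summed to 1148 to 2140 TPM in the BP libraries. Red cell markers summed to 4757 TPM in NSC E11.5 and to 465 TPM in NSC E10.5. Counts of called members are given with and without NBN P3 and NSC E15.5.

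A cell was called G2/M-high when at least 20 of the 40 members stood at 10 TPM or more. This is a description of cells by the members themselves, and it carries no test. By this count 5 of 208 NBN cells, 21 of 335 BP cells and 144 of 532 NSC cells were G2/M-high. The share averaged 2.44% ± 2.82 over the NBN libraries (SD, n = 4), 5.98% ± 6.10 over the BP libraries (SD, n = 5) and 25.4% ± 21.5 over the NSC libraries (SD, n = 8). Without NBN P3 the NBN mean was 1.59%. These shares depend on the limit. Of the 170 G2/M-high cells, 96 had 20 to 29 members, 25 of them 20 or 21, and 74 had 30 or more, while 18 cells had 18 or 19. With 30 members as the limit, the mean share was 0.0% in NBN, 3.48% in BP and 11.51% in NSC, and with 10 members it was 5.49%, 11.4% and 48.2%.

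Among NBN, 3 of 63 cells were G2/M-high at E16.5 (4.76%, 95% exact binomial interval 0.993 to 13.3%) and 2 of 40 at P3 (5.0%, 0.611 to 16.9%). None of 66 cells was at E18.5, which allows a share of up to 4.55%, and none of 39 at P1, which allows up to 7.69%. Among BP, E12.5 stood above the later stages with 12 of 72 cells (16.7%, 8.92 to 27.3%). E14.5 had 1 of 45 cells, E16.5 had 2 of 81, E18.5 had 2 of 62 and P0 had 4 of 75, or 2.22 to 5.33%. Their intervals reached up to 11.8%, 8.64%, 11.2% and 13.1%, so that of E12.5 overlapped all of them but that of E16.5. Among NSC, 65 of 88 cells were G2/M-high at E10.5 (73.9%, 63.4 to 82.7%), more than in any other library. E11.5 had 18 of 58 cells (31.0%), E13.5 had 13 of 66 (19.7%) and E15.5 had 6 of 86 (6.98%). E17.5 followed with 11 of 76 cells (14.47%) and E18.5 with 16 of 66 (24.2%). P0 had 12 of 45 cells (26.7%) and P1 had 3 of 47 (6.38%). The intervals of E10.5 overlap those of no other NSC library, whereas those of E11.5, E13.5, E17.5, E18.5 and P0 overlap one another. All these intervals cover counting error only.

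**Figure D1:**
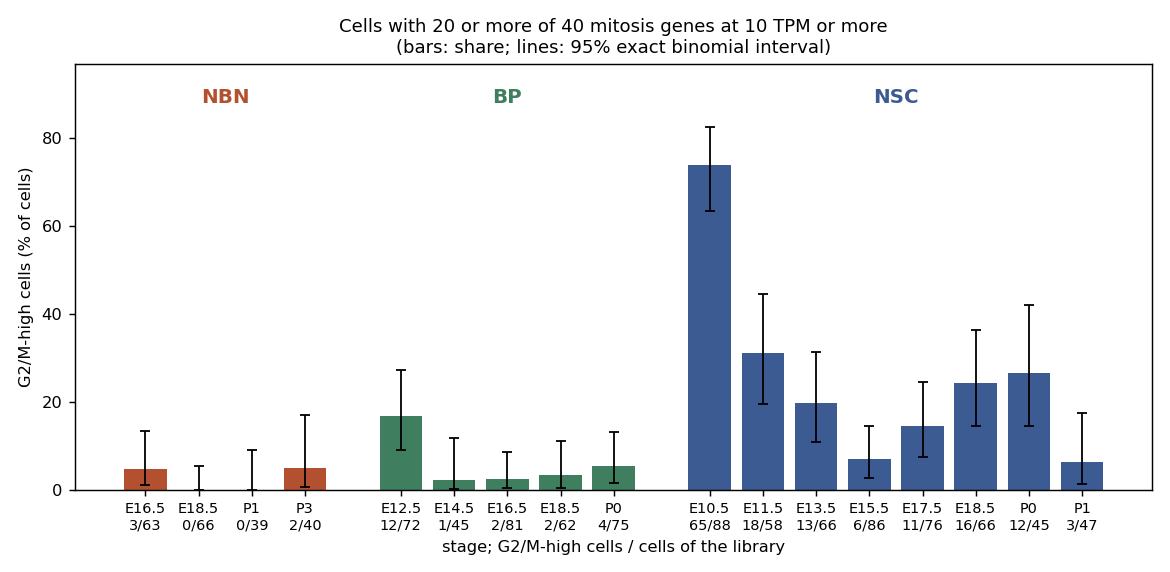
Share of cells with 20 or more of the 40 mitosis genes at 10 TPM or more, in percent, for each NBN, BP and NSC library by stage, with counts under the axis. Lines are 95% exact binomial intervals. NSC E10.5 stands at 73.9%, BP E12.5 at 16.7% and all other BP and NBN libraries at 5.33% or less.

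Cells with a neuron profile made up much of the mid-stage NSC libraries. Among the NSC cells without that profile, the share of G2/M-high cells was 74.4% at E10.5 and 51.9% at E11.5. It was 26.7% at E13.5, 25.0% at E15.5 (2 of 8 cells) and 45.0% at E17.5. Late libraries had 26.0% (E18.5), 27.9% (P0) and 2.33% (P1). The low share of NSC E15.5 over all cells went with 78 neuron-profile cells of 86, while P1 was low with 4 of 47. In a bulk mean over cells, fewer dividing cells and less RNA per dividing cell cannot be told apart, which is why the level in the G2/M-high cells is given apart below.

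Most members varied together between cells. The Pearson correlation of a member's log2(TPM + 1) with the mean of the other 39, over all kept cells, had a median of 0.658 and ran from 0.305 for Pttg1 (securin) to 0.82 for Ccnb1 (cyclin B1). These are descriptions over cells, which share libraries and depth. Within populations the median was 0.448 in NBN, 0.666 in BP and 0.638 in NSC.

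The members were put in order by the median number of other members in the cells where they were present. Plk1, the polo kinase of mitotic entry, was present beside a median of 29 other members. Ttk, the checkpoint kinase Mps1, and Aurkb, the kinase of the chromosomal passenger complex, were present beside 28 others each, and Spc25, of the Ndc80 complex, beside 27. At the other end, apart from 7 members described below, stood Pttg1 at 14 and Ccna2 (cyclin A2, active from S phase) at 15. Cenpf (a kinetochore and nuclear matrix protein of G2) and Cdc25b (a phosphatase that activates Cdk1) stood at 18. Cks2 (a Cdk1 subunit) and Bora (which helps to activate Plk1) stood at 19, and Top2a (the topoisomerase that untangles chromosomes) and Mki67 (the Ki-67 antigen) at 20. The order rests on counts of members and was not set against cell cycle time. Pttg1 was present in 44.3% of cells with 20 to 29 others and in 36.9% of those with 30 or more. For Cdc25b these shares were 19.8% and 29.4%. The places of Pttg1 and Cdc25b in the order thus need not reflect early presence. Top2a was at 10 TPM or more in 57.4% of cells with 10 to 19 others and in 86.5% of those with 20 to 29. Plk1 was so in 7.14% of cells with 10 to 19 others, 36.5% of those with 20 to 29 and 75.0% of those with 30 or more. Thus Top2a and Mki67 were already found in many cells of an intermediate count, and Plk1 mainly in those of the highest.

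By contrast, 7 members were common in cells with few others. Spc24, a partner of Spc25, was at 10 TPM or more in 96.6% of cells with 0 to 4 other members and in at least 94.8% of the cells of every library but NBN P3. Hmmr (a microtubule-binding protein) was present in 51.0% of the cells with 0 to 4 others, Ube2c (the ubiquitin-conjugating enzyme of the anaphase-promoting complex) in 40.8%, Prc1 (the crosslinker of the spindle midzone) in 40.1%, Birc5 (survivin) in 26.7%, Racgap1 (a regulator of cytokinesis) in 25.7% and Nuf2 (of the Ndc80 complex) in 20.9%. Of the NBN cells that were not G2/M-high, 95.1% held Spc24, 63.1% Hmmr and 49.8% Ube2c at 10 TPM or more, against 0.4926% for Bub1 and 0.985% for Plk1. In G2/M-high cells these shares were higher for each of the 7, with Birc5 in 95.9% of G2/M-high cells and 45.3% of all others, and Prc1 in 94.1% and 58.2%. Exons of Ube2c overlap those of Tnnc2 on the other strand over 22.8% of its exonic length in GENCODE M21, and those of Prc1 overlap Rccd1 over 11.1%. In all, 8 members overlap a protein-coding gene, with Ccna2 and Exosc9 among the pairs. The cDNA and library kits named in the labels do not mark strand, so reads of such pairs cannot be told apart.

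**Figure D2:**
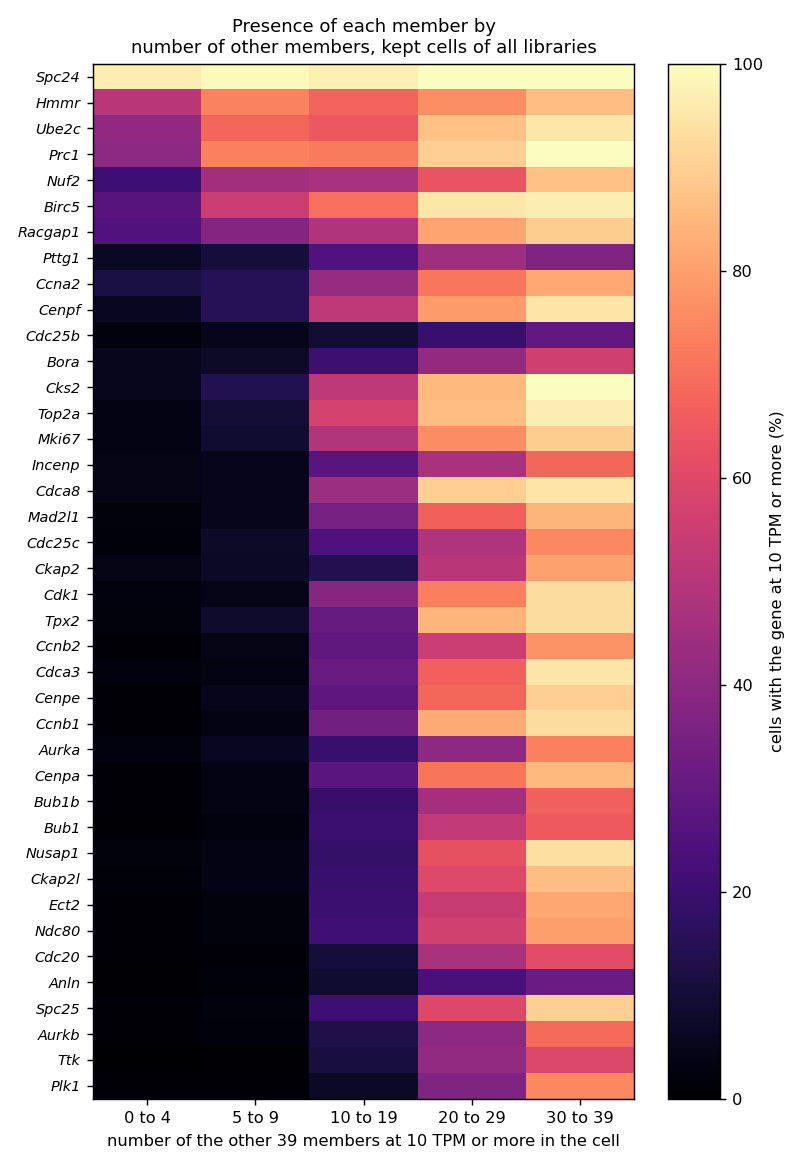
Percentage of cells in which each member stood at 10 TPM or more (colour), by the number of the other 39 members present in the cell (columns), over all kept cells. Members are sorted from Spc24, present beside a median of 5 others, to Plk1, present beside 29.

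Levels over all cells of a library followed the populations. The median over the 40 members of the library mean was 0.267 to 21.8 TPM in the NBN libraries, 13.8 to 60.6 TPM in the BP libraries and 27.4 to 99.0 TPM in the NSC libraries. In NBN it was 11.49 TPM at E16.5, 4.34 at E18.5, 0.267 at P1 and 21.8 at P3, and NBN P3 held the highest NBN value for 25 members. In BP it was 60.6 TPM at E12.5, 18.4 at E14.5, 14.7 at E16.5, 13.8 at E18.5 and 25.1 at P0, and BP E12.5 held the highest BP value for 31 members. In NSC, E10.5 and E11.5 had 98.8 and 96.2 TPM, E13.5 had 66.6, E15.5 had 27.4 and E17.5 had 68.3. E18.5 had 89.7 TPM, P0 had 99.0 and P1 had 46.7. NSC E15.5 held the lowest NSC value for 28 members. Averaged over all 17 libraries, Ccnb1 had the highest TPM of the members, followed by Cks2, Ube2c, Top2a and Prc1, and Anln, the cleavage-furrow protein anillin, had the lowest.

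**Figure D3:**
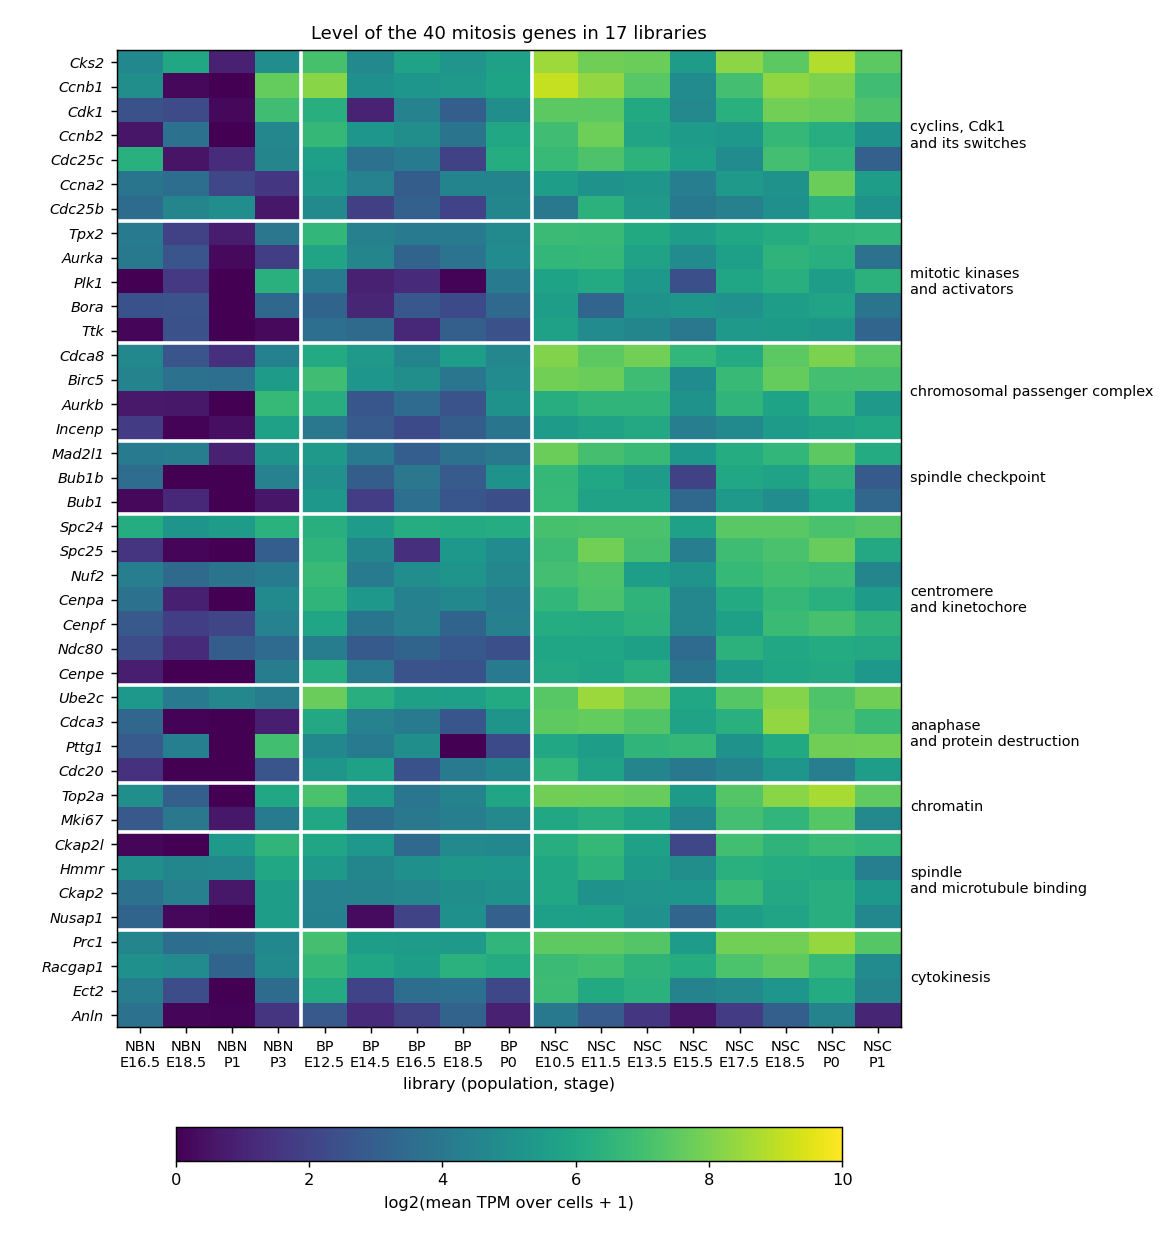
Level of each member, as log2 of the mean TPM over cells plus 1 (colour), in the 4 NBN, 5 BP and 8 NSC libraries by stage, grouped by role. NBN P1 is darkest, with 26 members under 1 TPM, and NSC E15.5 is the darkest NSC column, the lowest NSC library for 28 members.

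NBN libraries were compared with NSC libraries in a model with age in days as a covariate, fitted with limma over 14093 genes (two-sided, Benjamini-Hochberg adjustment, threshold 0.05). All 40 members were lower in NBN, with a median log2 difference of -3.30, and 20 of them passed. Over all 14093 genes, 1.33% were called lower, 0.404% higher, and the median difference was -0.11. In 16 members every NBN library lay below every NSC library, as did 1.58% of all genes. NBN P3, with markers of other cells, was the highest NBN library for most members. Without it 32 members passed, with a median of -3.66 (all 40 lower in NBN in both fits), beside 2.75% of all genes called lower. The 12 added were Aurkb, Birc5, Ccnb1, Cdk1, Ckap2, Ckap2l, Mad2l1, Nusap1, Plk1, Pttg1, Racgap1 and Spc24. Without NSC E15.5, 30 passed, beside 2.39% of all genes, and the 10 added were Aurkb, Birc5, Ccna2, Cdk1, Ckap2l, Mad2l1, Nuf2, Plk1, Racgap1 and Spc24. The count also depended on other libraries, since 11 members passed without NSC E18.5, without NSC P0 or without NBN P1, and 12 without NSC P1. Of all genes, 85 of 13997, 68 of 13928, 111 of 14023 and 72 of 13998 were called lower, in that order. Quantile normalization moved the median over all genes to 0.04 and left 20 members called, at a median of -3.08, beside 169 of 14093 genes called lower. Averaging log2(TPM + 1) over cells in place of TPM left 2 called members, at a median of -0.99, beside 91 of 14093 genes called lower. Markers of other cells moved in the same comparison. Of 5 meningeal markers, Col3a1 (4.19; limma, adjusted p = 0.0416) and Dcn (4.54; limma, adjusted p = 0.044) were called higher in NBN, and the 5 summed to 4.78 to 1771 TPM in the NBN libraries and to 1.01 to 18.6 TPM in the NSC libraries. Of 5 oligodendrocyte lineage markers tested, Olig2 was called lower in NBN (-3.86; limma, adjusted p = 0.0244). The part of such cells in the member differences was not tested.

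Among the cyclins and the switches of Cdk1, 2 of 7 members passed. Ccnb2, cyclin B2, had 0.512, 12.4, 0 and 23.9 TPM in NBN (E16.5, then E18.5, P1 and lastly P3, the order used below), against 34.4 to 222 TPM in NSC (median 65.7). The groups did not overlap, and the log2 difference was -3.63 ± 0.85 (SE; limma, adjusted p = 0.0368). Cks2 had 24.7, 61.0, 0.869 and 28.7 TPM in NBN, against 43.8 to 462 TPM in NSC (median 221). NBN E18.5 overlapped the NSC range, and the log2 difference was -3.37 ± 0.82 (limma, adjusted p = 0.0444, lost in 13 of 17 fits that leave out 1 library). Ccnb1 had 29.4, 0.155, 0 and 198 TPM in NBN, against 27.6 to 555 TPM in NSC (median 212). Its groups overlapped through NBN P3, where the 2 G2/M-high cells held 82.6% of its TPM. NBN E16.5 also lay just above NSC E15.5, the lowest NSC library. The log2 difference of Ccnb1, -4.04 ± 1.26, did not pass (limma, adjusted p = 0.105). Cdk1 itself had 4.63, 3.82, 0.163 and 120 TPM in NBN, against 24.8 to 236 TPM in NSC, with 90.7% of its NBN P3 level in those 2 cells (-4.19 ± 1.14; limma, adjusted p = 0.0635). Both Ccnb1 and Cdk1 passed when NBN P3 was left out. The other members here, Ccna2, Cdc25b and Cdc25c (the last 2 are phosphatases that activate Cdk1), had log2 differences of -1.51 to -2.66 and did not pass. GENCODE M21 lists processed copies named Ccnb1-ps and Ccnb2-ps, so reads of these cyclins could have been split between gene and copy.

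Of the 5 mitotic kinases and their activators, 4 passed. Tpx2, which targets Aurora A to the spindle, had 16.0, 2.89, 0.743 and 14.7 TPM in NBN, against 47.4 to 112 TPM in NSC (median 81.6). The groups did not overlap, and the log2 difference was -3.32 ± 0.64 (limma, adjusted p = 0.0138). Of the fits that leave out 1 library, that without NSC P1 lost the call, and 1 of 12 other settings lost it too. Ttk had 0.0847, 4.54, 0 and 0.178 TPM in NBN, against 8.66 to 51.3 TPM in NSC, again without overlap (-3.77 ± 0.67; limma, adjusted p = 0.00943). Aurka (Aurora A) had a log2 difference of -2.86 and Bora, which helps Aurora A to activate Plk1, of -2.98, and both calls were lost in 7 and 13 of the 17 fits that leave out 1 library. Plk1 had 0.00895, 2.12, 0 and 79.5 TPM in NBN, against 4.50 to 85.8 TPM in NSC, and did not pass (-3.92 ± 1.20; limma, adjusted p = 0.0945). NBN P3 alone was high, with 85.7% of its Plk1 in the 2 G2/M-high cells.

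In the chromosomal passenger complex, which corrects faulty attachments, Cdca8 (borealin) had 24.5, 5.22, 1.53 and 19.8 TPM in NBN, against 67.9 to 271 TPM in NSC (median 177). No NBN library reached the NSC range (-3.85 ± 0.60; limma, adjusted p = 0.00408). Incenp, the scaffold of the complex, also passed (-3.74; limma, adjusted p = 0.0332), although its 51.6 TPM in NBN P3 lay within the NSC range of 18.6 to 65.1 TPM. Aurkb had 0.616, 0.548, 0 and 103 TPM in NBN, against 33.3 to 109 TPM in NSC (-4.28 ± 1.09; limma, adjusted p = 0.0523). Its high value in NBN P3 lay almost wholly outside the 2 G2/M-high cells, which held 0.980% of it. Birc5 did not pass either (-2.31). Of the spindle checkpoint genes, Bub1 had 0.156, 1.14, 0 and 0.528 TPM in NBN, against 8.95 to 102 TPM in NSC (median 47.0). The gap was complete, with a log2 difference of -4.01 ± 0.71 (limma, adjusted p = 0.00889). Mad2l1, the inhibitor Mad2 of the anaphase-promoting complex, had 0.865 to 35.4 TPM in NBN and 39.3 to 212 TPM in NSC. It did not overlap but missed the threshold (-2.74 ± 0.71; limma, adjusted p = 0.0542), and Bub1b (BubR1) was further from it (-2.84; limma, adjusted p = 0.191).

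Among 7 centromere and kinetochore genes, 5 passed. Spc25 had 1.85, 0.118, 0 and 6.96 TPM in NBN, against 18.2 to 230 TPM in NSC (median 124.6). The groups were apart, and the log2 difference was -5.43 ± 0.92 (limma, adjusted p = 0.00657). Its partner Spc24 had 71.7, 35.4, 44.9 and 83.5 TPM in NBN, against 52.3 to 174.7 TPM in NSC (median 140). Spc24 overlapped, and its log2 difference of -1.35 ± 0.37 missed the threshold (limma, adjusted p = 0.0635). The gap between these partners was not tested. Cenpf, Ndc80 (the subunit that grips the microtubule), Cenpe (the kinetochore motor) and Cenpa (the histone of the centromere) passed with log2 differences of -3.46, -3.25, -4.21 and -3.49. Cenpf and Ndc80 kept the call in each of the 17 fits that leave out 1 library, whereas Cenpe and Cenpa lost it in 6 each.

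The anaphase genes held the lowest log2 difference of the 40 members. Cdca3, which promotes entry into mitosis and is itself destroyed in G1, had 8.99, 0.0570, 0 and 0.782 TPM in NBN, against 52.7 to 336 TPM in NSC (median 159). No library came near the other group, and the log2 difference was -5.65 ± 0.71, or 50.1-fold lower in the fit (limma, adjusted p = 0.000502). Ube2c had 38.8, 17.0, 23.7 and 17.4 TPM in NBN, against 62.1 to 362 TPM in NSC (median 196). It stayed at measurable levels in every NBN library and yet below every NSC library (-2.66 ± 0.47; limma, adjusted p = 0.00889). Cdc20, the activator of the anaphase-promoting complex, had 1.66, 0, 0 and 5.14 TPM in NBN, against 15.54 to 96.6 TPM in NSC (-3.73 ± 0.72; limma, adjusted p = 0.0141). Its call was lost without NSC P1 and in 3 of 12 other settings. Pttg1 had 6.35, 19.0, 0 and 125.3 TPM in NBN and 33.5 to 235 TPM in NSC and did not pass (limma, adjusted p = 0.19). None of the Pttg1 in NBN P3 was in the 2 G2/M-high cells.

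Both chromatin genes passed, with log2 differences of -3.97 ± 0.95 for Top2a (limma, adjusted p = 0.0413) and -3.15 ± 0.75 for Mki67 (limma, adjusted p = 0.0387). Top2a had 30.0, 7.26, 0.00927 and 62.6 TPM in NBN, against 42.6 to 408 TPM in NSC, and overlapped through NBN P3 and NSC E15.5. Mki67 had 5.88, 15.2, 0.543 and 16.4 TPM in NBN, against 24.4 to 166 TPM in NSC, with no overlap. These calls were lost in 10 and 9 of the 17 fits that leave out 1 library. None of the 4 spindle genes passed. Ckap2l, a spindle-pole protein, led them by level, with 0.123, 0, 39.9 and 91.98 TPM in NBN and 3.42 to 124 TPM in NSC (-3.55 ± 1.19; limma, adjusted p = 0.135), and Nusap1, which bundles spindle microtubules, had a log2 difference of -3.27. Hmmr had the smallest difference of all members (-0.61), with 22.9 to 62.9 TPM in NBN and 18.8 to 86.3 TPM in NSC. Of the 4 cytokinesis genes, Prc1 passed. It had 22.6, 11.2, 12.1 and 24.6 TPM in NBN, against 45.1 to 337 TPM in NSC (median 182), below in every library (-3.35 ± 0.51; limma, adjusted p = 0.00328). Ect2 and Racgap1 had log2 differences of -2.27 and -1.88, and Anln of -0.66.

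The calls that hung on single libraries were largely the same ones. Top2a, Ccnb2, Cenpe, Cenpa, Cks2, Incenp and Bora lost their calls without NSC E18.5, without NSC P0, without NSC P1 and without NBN P1. Mki67 and Aurka lost theirs without NSC E18.5, without NSC P0 and without NBN P1, and Cdc20 and Tpx2 without NSC P1. Of these, Top2a, Mki67, Ccnb2, Cks2 and Bora were also lost without BP E14.5 and without BP P0, and Aurka without BP E14.5, since BP libraries share in the estimate of spread and of the age slope. Leaving out NSC E10.5, E11.5, E13.5 or E17.5, BP E16.5 or E18.5, or NBN E16.5 or E18.5 ended 2 to 6 of these calls each. Bub1, Cenpf, Cdca3, Cdca8, Spc25, Ndc80, Ube2c, Prc1 and Ttk kept their calls in all 17 fits.

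BP libraries were set against the same NSC libraries in the same model, so the 2 comparisons share their controls. The BP libraries also differed from NSC in cell makeup, with 12 of 15 radial glial markers called lower (7 of 15 in NBN against NSC) and none of the 14 newborn neuron markers called in either comparison (limma). Of 9 interneuron markers tested, Gad1 was called lower in BP (-3.79; limma, adjusted p = 0.011). Of 11 basal progenitor markers tested, none was called in BP and 1, Eomes, was lower in NBN (-4.09 ± 0.93; limma, adjusted p = 0.0318). All 40 members had lower values in BP, with a median log2 difference of -1.71 against 0.14 over all genes. In the fit with all libraries 1 member passed, Ndc80, beside 0.483% of all genes called lower and 0.0284% higher (28 members had an unadjusted p under 0.05). Ndc80 had 17.3, 6.05, 8.32, 5.77 and 4.36 TPM in BP at E12.5, E14.5, E16.5, E18.5 and P0, against 10.3 to 85.4 TPM in NSC (median 61.0). BP E12.5 overlapped only NSC E15.5, whose Ndc80 was the lowest of the NSC libraries. The log2 difference was -2.62 ± 0.52 (limma, adjusted p = 0.0253), and the call was lost in 9 of the 17 fits that leave out 1 library, those without NSC E10.5, E11.5, E18.5, P0 or P1 or without BP E14.5, E16.5, E18.5 or P0. Incenp, Ckap2 (a microtubule-binding protein) and Pttg1 lay below every NSC library in every BP library, as did 0.688% of all genes.

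The number of BP calls depended on which libraries and which NSC cells were used. It was 8 without NSC E15.5, 6 without NBN P3, 5 without NBN P1 and 2 without BP E12.5 or without NBN E16.5. Of all genes, 148 of 13980, 123 of 13925, 85 of 14023, 81 of 14010 and 58 of 13930 were called lower, in that order. With the neuron-profile cells left out of every NSC library 18 members passed, at a median of -2.12. Without NSC E15.5 and NBN P3, an alternative chosen after seeing the data, 19 passed, at a median of -1.93. In that fit 335 of 13807 genes were called lower. The 18 included Cdk1, Plk1, Top2a, Prc1, Ube2c, Cdca3, Cdca8 and Bub1. Over all genes, 2.71% were called lower without the neuron-profile cells, against 0.483% with them, and calls in either direction numbered 1047, against 72. The neuron-profile cells were left out of NSC alone, while 330 of the 335 BP cells had the same profile. In NSC, 21 of 225 cells with the profile were G2/M-high, against 123 of 307 without it. The setting thus removed mostly cells that were not G2/M-high, and from NSC only. The part of neuron-profile cells in the difference between BP and NSC was not tested beyond this setting.

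The size of the BP difference varied between members. Plk1 had 16.7, 0.903, 1.36, 0.0570 and 16.9 TPM in BP, against 4.50 to 85.8 TPM in NSC (-3.42 ± 1.01; limma, adjusted p = 0.155). Pttg1 had 24.5, 16.53, 30.2, 0 and 3.69 TPM in BP, against 33.5 to 235 TPM in NSC (-3.27 ± 0.98; limma, adjusted p = 0.158). Both were low in BP at most stages, and neither passed. At the small end stood Anln (-0.37), Racgap1 (-0.42), Cdc20 (-0.59) and Hmmr (-0.61). Racgap1 had 100, 57.3, 47.0, 82.8 and 69.7 TPM in BP, against 27.1 to 180 TPM in NSC (median 107), and the ranges overlapped widely. By role, the median BP difference was -2.10 for the passenger complex, -2.02 for the mitotic kinases, -1.54 for the cyclins and their switches and -0.91 for cytokinesis.

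**Figure D4:**
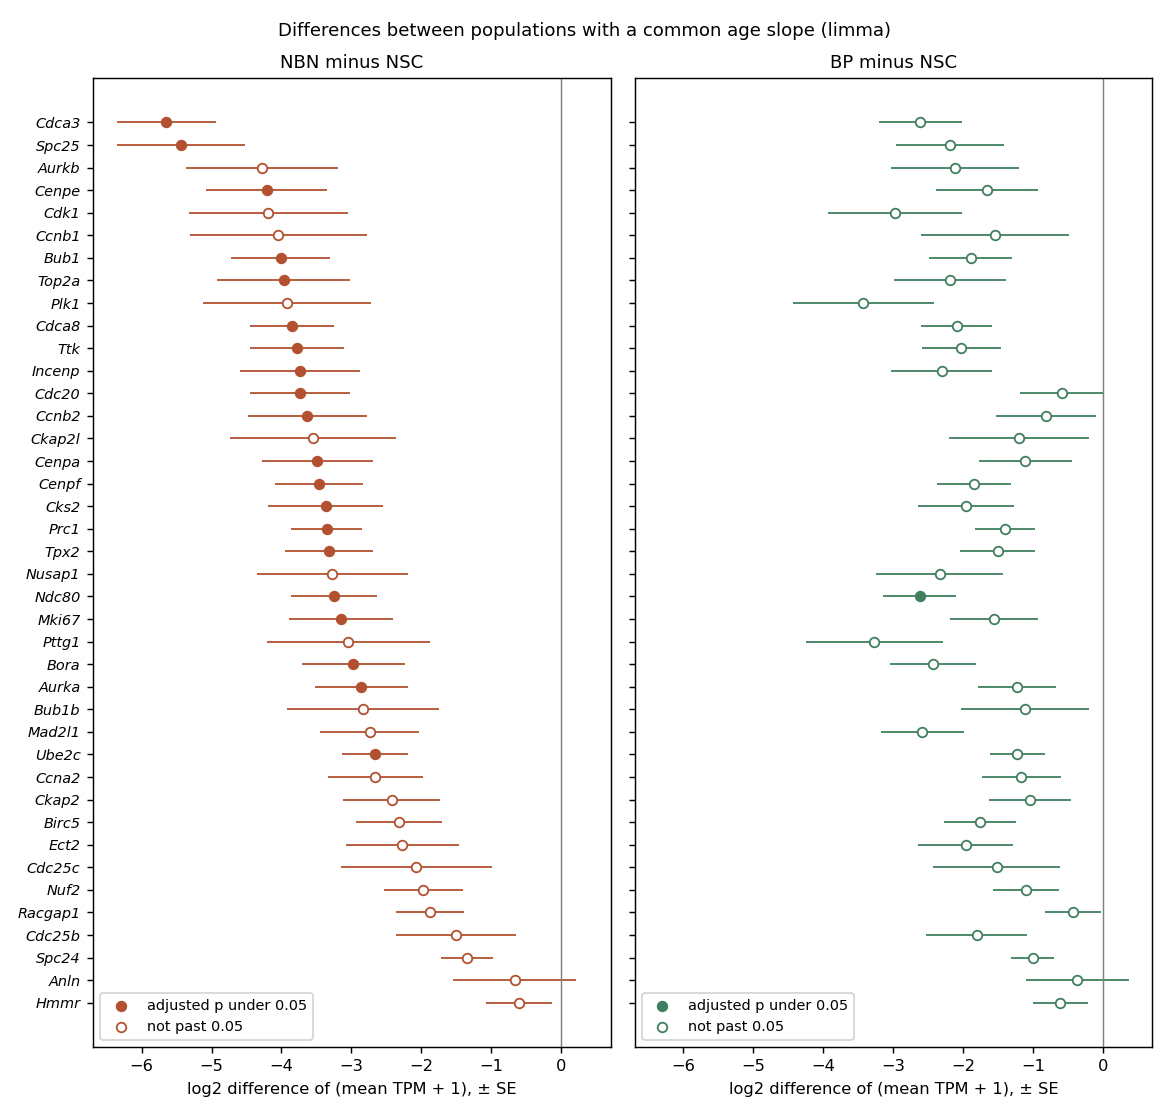
Log2 difference in (mean TPM + 1) of each member between NBN and NSC (left) and between BP and NSC (right), with its SE. Filled points passed an adjusted p of 0.05. All 40 differences are negative in both panels, 20 are filled on the left and 1, Ndc80, on the right.

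NBN and BP libraries were then compared with each other. No member passed (limma, 15 at an unadjusted p under 0.05), and 0.0213% of all genes were called lower and 0.0071% higher. The median member difference was -1.47 against -0.23 over all genes, and 38 of 40 members were lower in NBN. Quantile normalization moved that median over all genes to -0.02 and left the members at -1.26. With log2 values averaged over cells the member median turned to 0.10. Bub1, Ube2c, Prc1 and Racgap1 lay below every BP library in every NBN library, and so did 2.82% of all genes. Racgap1 had 31.1, 27.4, 8.30 and 26.3 TPM in NBN, against 100, 57.3, 47.0, 82.8 and 69.7 TPM in BP. Without NBN P3, Cdc20 passed as the sole member, beside 11 of 13925 genes called lower.

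At stages shared by populations, with 1 library each and no test, the order was the same. At E18.5 all 40 members were lower in NBN than in NSC (median log2 difference -4.10) and 39 were by 1 log2 unit or more, as were 21.0% of all genes. At E18.5, 39 members were lower in BP than in NSC (median -2.47), with 36 by 1 unit or more, as were 19.7% of all genes. At E18.5, 34 members were lower in NBN than in BP (median -1.45), with 25 by 1 unit or more, as were 19.6% of all genes. At E16.5 the difference between NBN and BP was smaller, with 29 members lower (median -0.54), beside 42.3% of all genes. At P0, 39 members were lower in BP than in NSC (median -2.19), with 34 by 1 unit or more, beside 21.4% of all genes. At P1, 39 were lower in NBN than in NSC (median -4.49), with 36 by 1 unit or more, beside 29.2% of all genes. The exceptions were Anln at E18.5 and Cdc20 at P0 between BP and NSC, and Hmmr at P1 between NBN and NSC.

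Age was then examined within NSC. No member had a slope past the threshold (limma, 0 of 40, and 0 at an unadjusted p under 0.05), while 0.234% of all genes were called falling and 1.21% rising. The median slope was -0.03 log2 units per day. The share of G2/M-high cells was nevertheless higher at E10.5 (73.9%) than later (at most 31.0%), and the level in those cells was lower. Of the 65 such cells at E10.5, 43 had 20 to 29 members, and with 30 members as the limit the share was 25.0% at E10.5, 17.2% at E11.5 and 2.33 to 13.3% later. With members counted from 50 TPM it was 30.7% at E10.5, 25.9% at E11.5 and 3.49 to 18.2% later. The size of the gap in share thus rested on the limit. In the 65 G2/M-high cells of E10.5 the median of the member means was 122 TPM, and the members summed to 5809 TPM per cell on average. In the G2/M-high cells of the later NSC libraries the median was 184.8 TPM at E13.5 (13 cells) to 312 TPM at E17.5 (11 cells), and the mean sum 10100 to 16190 TPM. The lower level was seen on both sides of 30 members. In cells with 30 or more, the median was 148 TPM at E10.5, against 255 to 399 TPM in the later NSC libraries. In cells with 20 to 29 it was 88.9 TPM, against 106.8 to 237 TPM in those later libraries that had such cells. The median level over all cells of E10.5 was near that of P0. Its G2/M-high cells had a median of 5779 genes, against 3800 to 5908 in those of the later NSC libraries, and 62 of the 65 also had at least 15 of 30 G1/S genes at 10 TPM or more. So did 15 of the 23 other cells of E10.5. Whether the 65 cells were in G2/M or in another phase of the cycle was not tested.

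**Figure D5:**
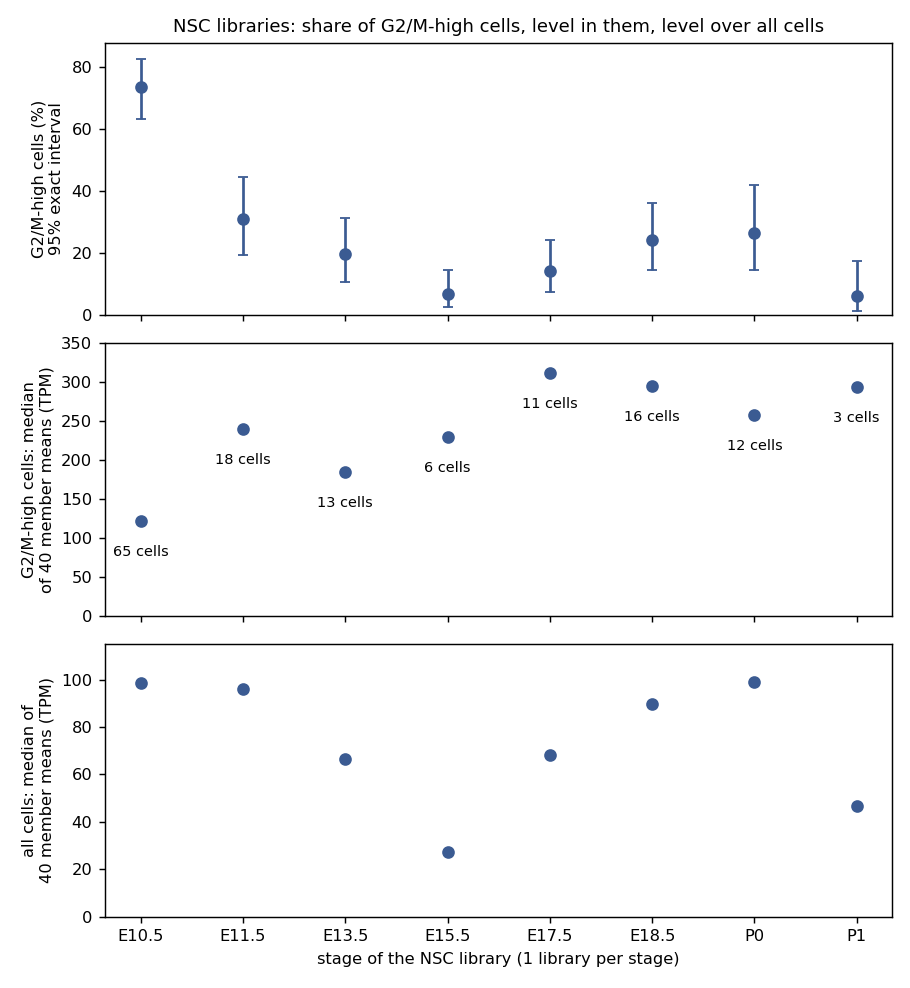
NSC libraries by stage, 1 library each: share of G2/M-high cells with 95% exact intervals (top), median of the 40 member means in the G2/M-high cells in TPM (middle, with cells counted), and the same over all cells (bottom). E10.5 has the highest share, 73.9%, the lowest level in G2/M-high cells, 122 TPM, and a level over all cells of 98.8 TPM, close to the 99.0 TPM of P0.

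The 2 ways of averaging cells weigh this differently. When log2(TPM + 1) was averaged over the cells of a library, so that the number of positive cells counts for more than their level, 14 members fell with age in NSC. They were Birc5, Bub1, Bub1b, Ccnb2, Cdc20, Cdc25c, Cdca3, Cdca8, Cenpa, Cenpe, Ect2, Mad2l1, Plk1 and Tpx2. This stands beside 13.4% of all genes called falling by the same average, so the fall was not confined to the members. Of all genes, 70.6% had a negative slope by this average. Among NSC libraries, the median number of genes per cell was highest in E10.5 (5688). It was lowest in P1 (3371), followed by E18.5 (3428), while the rest ranged from 4512 (E11.5) to 5387.5 (E13.5). The part of gene detection in these falls and in the shares of positive cells below was not tested. Of the 14, Cdca8 was at 10 TPM or more in 92.05% of cells at E10.5 and in 14.9 to 44.8% of those of the later NSC libraries. Cdc20 was present in 50.0% of cells at E10.5 and in 3.95 to 24.1% later, and Plk1 in 42.05% and in 4.65 to 22.4%. Ccnb1, which is not among the 14, was present in 81.8% of the E10.5 cells and 37.9% of the E11.5 cells. From E13.5 to E18.5 its share lay between 11.6 and 22.7%, and P0 and P1 had 42.2 and 10.6%.

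In BP no member had a slope past the threshold (limma, 1 at an unadjusted p under 0.05, and 0.0% of all genes called), and 35 of 40 slopes were negative, with a median of -0.17 per day. This direction rested on BP E12.5, since without it 12 slopes were negative and 28 positive, with a median of 0.09. The 12 G2/M-high cells of BP E12.5 held 83.6% of the member TPM of that library. In them the median of the member means was 321 TPM, against 122 TPM (E10.5) to 312 TPM (E17.5) in the G2/M-high cells of the NSC libraries. The NSC libraries nearest in age, E11.5 and E13.5, had 240.5 and 184.8 TPM. The difference of the BP and NSC slopes passed for no member (limma, 1 at an unadjusted p under 0.05), and for 0.0071% of all genes.

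Nearly all G2/M-high BP cells held Eomes. Of the 21, 20 had Eomes at 10 TPM or more (95.2%, exact interval 76.2 to 99.9%), against 49.0% of the 314 other BP cells. Neurog2, a proneural factor, was present in 57.1% of them and in 12.7% of the other BP cells, and Insm1, a factor of basal progenitors, in 71.4% and 34.1%. Most also held neuronal transcripts, with Dcx in 90.5% and Neurod6 in 85.7%, close to the other BP cells at 96.2% and 91.1%. The pooled shares weigh libraries by their cells, and 12 of the 21 came from E12.5, against 60 of the 314 others. These differences thus mix stages and were not compared within stages. The interval takes the pooled cells as independent and covers counting error only.

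In NSC, 68.8% of the 144 G2/M-high cells had Sox2 at 10 TPM or more, against 36.9% of the 388 others, and 41.7% had Nes, against 17.3%. Dcx was present in 33.3% of the G2/M-high NSC cells and in 61.6% of the others, and Neurod6 in 13.2% and 44.3%. The pooled shares weigh libraries by their cells, and E10.5 gave 65 of the 144 G2/M-high cells but 23 of the 388 others. Of those 65, none held Eomes, which allows a share of up to 4.62%, and 1 held Dcx. The differences in Sox2, Nes, Dcx and Neurod6 thus mix stages and were not compared within stages. Markers of other cells were found among the G2/M-high cells as well. At least 2 red cell markers stood at 10 TPM or more in 20 of the 65 at E10.5 and in 13 of the 18 at E11.5, against 26 of 88 and 42 of 58 over all cells of those libraries. At least 2 interneuron markers did so in 7 of the 11 from E17.5, 6 of the 16 from E18.5 and 9 of the 12 from P0, against 22 of 76, 14 of 66 and 20 of 45 over all cells. At least 2 oligodendrocyte lineage markers did so in 5 of the 16 from E18.5 and 5 of the 12 from P0, against 18 of 66 and 12 of 45 over all cells. Whether the G2/M-high cells differ in this from the others was not tested. The part of such cells in the NSC shares was not tested.

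The 5 G2/M-high cells of NBN were of different kinds. The 3 of E16.5, with 20, 21 and 22 members present, had Eomes at 114, 79.5 and 214 TPM and Plk1 at 0, and their members summed to 3103 to 6193 TPM. The pair of P3, with 29 and 21 members present, had Eomes at 0.0120 and 0.682 TPM, Ccnb1 at 3631 and 2898 TPM and Plk1 at 2200 and 524 TPM. These 2 cells held 52.4% of the member TPM of NBN P3, and 1 of them had at least 2 microglial markers at 10 TPM or more. All 3 of E16.5 were also past the limit for G1/S genes, with 20 to 24 of 30, while those of P3 had 5 and 4.

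The genes outside the list that most resembled the member mean over all kept cells were Pbk (Pearson 0.769), Kif22 (0.766), Cdca2 (0.754), Rrm2 (0.728), Kif23 (0.718), Fam64a (0.701), Tacc3 (0.698), Kif2c (0.696), Casc5 (0.694) and 2810417H13Rik (0.690), of 14053 genes ranked with a median of 0.035. Kif22, Kif23 and Kif2c are kinesin motors of mitosis, and Rrm2 is the ribonucleotide reductase subunit of S phase. Of 60 further mitosis genes listed by role, 53 had lower values in NBN than in NSC, with a median of -1.86, and 14 were called lower, beside 1.33% of all genes. The 14 were Kif22, Kif23, Tacc3, Cenpi, Kif2c, Melk, Cdca2, Dsn1, Hmgb2, Pmf1, Esco2, Smc2, Fbxo5 and H2afz. Kif22 had 2.47, 0.0596, 0.490 and 2.69 TPM in NBN, against 42.9 to 255 TPM in NSC, apart in every library (-5.91 ± 0.65; limma, adjusted p = 0.000245). In BP against NSC, 49 of the 60 had lower values, with a median of -1.09, and 2 were called lower, Esco2 (cohesion) and H2afz (a histone variant), beside 0.483% of all genes.

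Of 30 genes of G1/S and S phase, those called lower in NBN than in NSC included Tk1 and Rrm2, which serve nucleotide supply, and Clspn and Dtl, which act at replication forks. The median of the 30 was -1.94 in NBN against NSC, and none was called in BP against NSC, with a median of -1.38. At least 15 of these 30 stood at 10 TPM or more in 3 NBN cells, 13 BP cells and 162 NSC cells. All 3 of the NBN cells, 9 of the BP cells and 101 of the NSC cells were G2/M-high as well. The median difference of the G1/S genes lay between that of all genes (-0.11 in NBN) and that of the 40 members (-3.30 in NBN).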

How the data were processed

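Single cells were captured on Fluidigm C1 chips and their cDNA made with SMARTer chemistry, per the labels' protocols. The authors deposited TPM per gene and cell for 17 libraries, made with kallisto 0.43.0 and the builds GRCm38.p2 and mm10, per the submitters' processing notes. The annotation, filters and strand of counting are not given in the sources used here. TPM keep no depth, and the column totals lay between 999993 and 1000013. The authors' values of 7 near-empty cells are whole numbers and were treated as a score of unknown scale. Those 7 are among the 19 left out for having fewer than 500 genes at 1 TPM. One left-out NSC E11.5 cell of 5 genes had Cdk1 at 386230 TPM. No 2 cells had identical values.

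A library's value was log2(mean TPM over kept cells + 1), and the pseudocount of 1 makes folds of weakly expressed genes too small. All genes with a mean of 1 TPM or more in at least 4 of 17 libraries (14093) entered limma 3.58.1 (R 4.3.3; lmFit, eBayes with trend), two-sided, with Benjamini-Hochberg adjustment over all of them and a threshold of 0.05. Populations were compared with a common age slope in days, birth set at 18.5. Age trends had a slope for each population. The procedure was tested on simulated data, but the setting and outcome are not given here, so no result rests on that test. Shares have 95% exact binomial intervals, and a count of 0 is given the limit of 3 counts. Neither covers more than counting error. The labels name no animals or batches, so p-values measure only the spread between these libraries, which may be technical. BP and NBN were not tested for shared animals.

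All 40 members are named by role. Library values are given for those that lead a role by mean TPM and for part of those that passed a test. The others that passed are given mainly by log2 difference. The 10 most similar genes were ranked by Pearson correlation over cells. The members, marker lists, roles, neuron-profile rule and tests were chosen with earlier results of these data known. Promoters are from the RefSeq table on GRCm38.p6 and overlaps from GENCODE M21. The table had no promoter for 7 members (Ccna2, Aurkb, Spc24, Tpx2, Cdc25c, Incenp and Bora). One result on a gene outside the 40 is not reported here. Alternatives changed the pseudocount, the filter on genes or cells, the averaging, the scaling, the age term and the libraries used. Python 3.11.15, NumPy 2.4.6, pandas 2.3.3, SciPy 1.17.1 and matplotlib 3.10.9 were used.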

Additional observations from a re-analysis of the deposited data

Results flagged for a closer look

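In groups of 4 to 10 libraries, 123 groups of values were examined for a library that stands far from the others of its population (Dixon's test at 95%), and 18 had one. Chance alone marks about 1 group in 20, and values of 1 library are not independent of each other. NSC E15.5 was the low library in 9 cases: Top2a at 42.6 TPM, Cenpe at 13.9 TPM, Plk1 at 4.50 TPM, Spc24 at 52.3 TPM, Ndc80 at 10.3 TPM, Birc5 at 27.7 TPM, Prc1 at 45.1 TPM, Cks2 at 43.8 TPM and Ckap2l at 3.42 TPM. Neuron-profile cells made up 78 of its 86 cells, and their part in these values was not tested. BP E12.5 was the high BP library for the share of G2/M-high cells (16.7%), for Ccnb1 (298 TPM) and for Tpx2 (96.8 TPM). The share of G2/M-high cells in NSC E10.5 (73.9%) stood above the other NSC libraries.

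The remaining cases were single genes. Ccna2 was high in NSC P0 at 215.5 TPM. Spc24 was low in BP E14.5 at 45.0 TPM. Aurkb was high in NBN P3 at 103 TPM, a library in which microglial and meningeal markers were also high, and 0.980% of it was in the G2/M-high cells. Ttk was high in NBN E18.5 at 4.54 TPM, although no cell of that library was G2/M-high. Racgap1 was low in NBN P1 at 8.30 TPM.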

How the results depend on the processing

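Members called in BP against NSC numbered 1 in the reported fit. There were 4 with a pseudocount of 10, 0 without the filter, 0 with log2 averaged over cells, 3 after quantile normalization, 2 with all cells, 18 without neuron-profile NSC cells, 8 without the postnatal NBN libraries, 0 with stage as a factor, 19 without NSC E15.5 and NBN P3 (an alternative chosen after seeing the data), and 0 to 8 leaving out 1 library. In NBN against NSC, 20 were called. There were 13 with a pseudocount of 0.1, 11 without the filter, 2 with log2 averaged over cells, 36 without NSC E15.5 and NBN P3, and 11 to 32 leaving out 1 library. In NBN against BP, 0 were called, 1 (Cdc20) without NSC E15.5 and NBN P3, and 0 to 1 leaving out 1 library. Members with an age trend in NSC numbered 0, but 14 with log2 averaged over cells, and 0 to 0 leaving out 1 library.

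The median member difference stayed negative, except that in NBN against BP it was 0.10 with log2 averaged over cells, and the cause was not tested. In NBN against NSC it was -1.92 with a pseudocount of 10 and -0.99 with log2 averaged over cells. Leaving out 1 library gave -2.18 to -1.43 in BP against NSC, -3.67 to -2.73 in NBN against NSC and -1.82 to -1.01 in NBN against BP.

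Over all genes, BP against NSC had 72 calls, with 29 without the filter, 15 with log2 averaged over cells, 1047 without neuron-profile NSC cells, 188 without the postnatal NBN libraries, 35 with no age term, 578 without NSC E15.5 and NBN P3, and 27 to 179 leaving out 1 library. NBN against NSC had 245, with 120 without the filter, 691 without neuron-profile NSC cells, 442 with stage as a factor, 986 without NSC E15.5 and NBN P3, and 78 to 626 leaving out 1 library. NBN against BP had 4, with 1 at a pseudocount of 10, 2 without the filter, 2 with all cells, 1 without neuron-profile NSC cells, 13 without the postnatal NBN libraries, 0 with stage as a factor, 18 without NSC E15.5 and NBN P3, and 2 to 17 leaving out 1 library. The NSC trend had 203, with 2153 with log2 averaged over cells, 322 without NSC E15.5 and NBN P3, and 87 to 303 leaving out 1 library. The BP trend had 0, with 8 without the filter, 17 with log2 averaged over cells, and 0 to 0 leaving out 1 library.

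With 10 members as the limit, the mean share of G2/M-high cells was 5.49% in NBN, 11.4% in BP and 48.2% in NSC. With 30 it was 0.0% in NBN, 3.48% in BP and 11.51% in NSC. With members counted from 50 TPM it was 4.59% in BP and 15.7% in NSC, while NBN P3 had 2.5% and the other NBN libraries 0. Leaving out 1 library it was 1.59 to 3.25% in NBN, 3.31 to 6.92% in BP and 18.496 to 28.1% in NSC. Of 609 recomputed values for the 21 calls on single members, 467 kept their call, 142 lost it and 0 changed sign. No paired analysis was possible because the numbers in the sample titles only count cells, and no label ties libraries to animals. Libraries of the same day were compared with stage as a factor, above. TPM keep no depth, so the precision of low values in single cells is unknown.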
